A study of Mus musculus with 26 samples.

Results

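The 15 primary osteosarcomas of this mouse series were ranked by their Alx1 intensity, and the 5 highest were compared with the 5 lowest across all other genes. The tumours were thus chosen by their measured Alx1 intensity, read from the brighter of its probe sets by the average of all 26 arrays, and Alx1 itself is no result. In all, 10 of the 26 arrays enter the comparison directly and 5 more primary tumours, of middle rank, help to estimate the spread. Osteosarcoma is a malignant tumour of bone-forming cells. The labels describe the tumours as primary osteosarcomas of a mouse model and give each a number. The genotype, strain, age and skeletal site of each tumour, and whether each number is a separate mouse, are not stated in the labels or the other sources read here, so p-values measure the spread between these tumours. The other 11 arrays are 3 cultures of osteoblasts differentiated in vitro from wild-type cells, which the series uses as its control, 4 cell lines and 4 secondary tumours. All 4 secondary tumours carry the prefix OPflR, which the labels do not explain. The labels of number 66 conflict: its title says cell line and its source says tumour tissue derived from a cell line. It is counted here with the secondary tumours.

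Alx1 encodes a homeodomain protein, a transcription factor that binds short TAAT-rich DNA. It is made in the mesenchyme of the developing face and skull, which comes largely from the neural crest, and its loss disturbs the midface. Bones of the face and skull vault form under factors such as Alx1, Msx2 and the Dlx proteins and largely without Hox genes, which instead mark position along the trunk and limbs.

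The values that chose the tumours are given as a description only. In intensity units, the 5 high tumours were number 29 at 1309, 119 at 1096, 331 at 888, 94 at 871 and 66 at 563. The 5 middle tumours were 179 at 395, 64 at 382, 353 at 278, 87 at 264 and 182 at 169. The 5 low tumours were 176 at 141, 12 at 62.0, 330 at 28.6, 183 at 24.6 and 188 at 20.2. The edges were thus 563 inside against 395 outside for the high tumours, and 141 inside against 169 outside for the low tumours. The mean log2 gap between high and low was 4.45, and the other Alx1 probe set ranked the tumours almost alike (correlation of log2 values 0.986 over 15 tumours).

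Several facts about the arrays touch the results. Control transcripts added to each sample split the arrays into sets: the ratio of the bacterial transcripts bioB and bioC lay between 0.347 and 0.372 in tumours 119, 12, 29, 64, 66, 87 and 94, and between 0.997 and 1.02 in the other 8. The high tumours hold 4 arrays of the low-ratio set and 1 of the high-ratio set, and the low tumours 1 and 4, in that order, so Alx1 level and set are partly mixed. Tumour 330, a low tumour, lay below the other 14 primary tumours in the osteoblast markers Sp7 and Ibsp. Its log2 intensity of Sp7, the osteoblast transcription factor osterix, was 6.86 against 9.91 to 10.99 in the others. That of Ibsp, bone sialoprotein, was 4.73 against 10.56 to 13.04. The summed intensity of 19 osteoblast identity genes was 72034 to 104702 in the low and 102209 to 115366 in the high tumours. Tumours 183 and 188, also low, had the skin keratin Krt14 at 12.44 and 12.27 and the neutrophil gene S100a9 at 12.13 and 12.85, against at most 9.16 and 8.04 in the other 13. The Gapdh 5′ to 3′ control ratio, which falls with degraded RNA, averaged 0.813 in the high and 0.950 in the low tumours (exact permutation test, two-sided p = 0.119, n = 5 each, smallest possible p 0.00794). It followed the set, at 0.656 to 0.845 in the low-ratio and 0.909 to 1.03 in the high-ratio primary tumours. The same ratio of the bacterial transcript bioD averaged 0.432 in the high and 0.557 in the low tumours (same test, p = 0.0714). Array medians were 50.4 to 58.8 over the 15 tumours, at 55.5 to 58.8 in the low-ratio and 50.4 to 54.9 in the high-ratio set.

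Between high and low tumours, 208 of 12886 genes were called (1.61%), 150 of them higher (1.16%) and 58 lower (0.45%) in the Alx1-high tumours. A gene was called at a limma adjusted p below 0.05 and a fold of at least 2, and values below are log2 intensities with a floor of 3.64. The values of the 5 high and 5 low tumours did not overlap in 372 genes higher (2.89%) and 261 lower (2.03%) in the high tumours, among them 160 of the 208 called. With the control-transcript set as a term in the model only 5 genes were called higher (0.0388%) and 3 lower (0.0233%), although all 208 differences kept their sign. Scaling each array by its 75th percentile gave 127 higher and 103 lower, and quantile normalization 137 and 100, a more even split than the main 150 and 58.

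**Figure D1:**
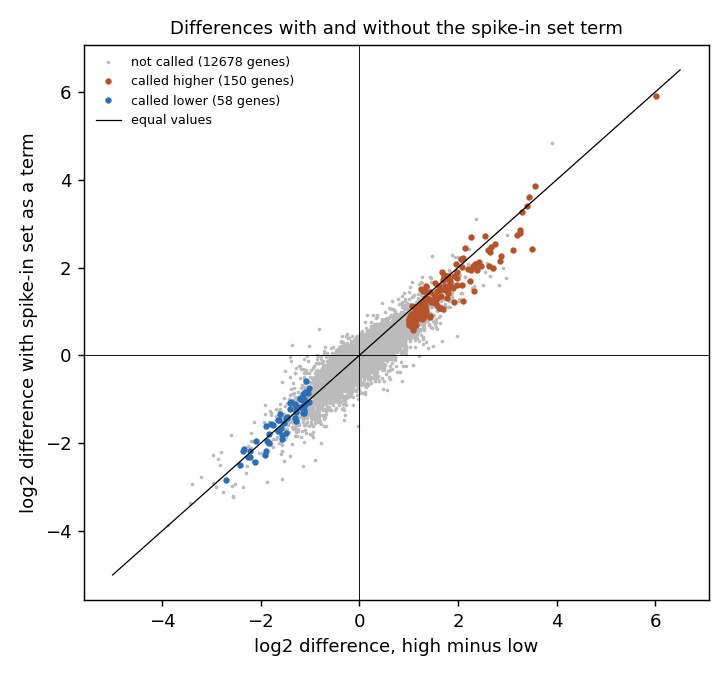
Each point is 1 of 12886 genes, with its log2 difference between the 5 Alx1-high and 5 Alx1-low tumours on the x axis and the same with the control-transcript set in the model on the y axis. The 150 genes called higher and the 58 called lower keep their sign on the y axis.

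The number of calls rested on single tumours. Without tumour 119 the test called 28 genes higher and 11 lower, without 183 33 and 19, without 188 39 and 18, without 330 51 and 39, without 66 63 and 23, without 94 71 and 23, without 176 89 and 78, without 29 94 and 56, and without 12 349 and 104. With 183 and 188 both left out 4 genes were called, Nts, Pik3r1, Srek1 and Nanos1, and all 208 differences kept their sign, 178 of them at 2-fold or more. Fitting log2 Alx1 as a slope over all 15 tumours called 246 genes higher (1.91%) and 156 lower (1.21%), and adding the set as a term called 65 genes higher (0.504%) and 93 lower (0.722%), and 80 of the 208 were among them. When the 3 tumours with most Alx1 were compared with the 3 with least inside each set, 0 genes were called in the low-ratio set, where 908 had an unadjusted limma p under 0.05 (7.05%), and 25 higher (0.194%) and 20 lower (0.155%) in the high-ratio set. Of the 208 genes, 206 had the same sign in both sets. These comparisons reuse tumours that made the 208 calls, so the shared sign is no separate support. A test of whether the slope on Alx1 differed between the sets called 0 genes, with 533 (4.14%) at an unadjusted limma p under 0.05, and 1889 (14.7%) had an unadjusted p under 0.05 for the high against low difference with the set term. In the high-ratio comparison of 3 against 3 that number was 2090 (16.2%).

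Upstream sequences of 4 genes are shown because the results on the Alx1 neighbourhood and on facial patterning turn on them: Nts, near Alx1 and with the largest difference of the genes called, and the patterning genes Dlx1, Msx2 and Foxf2. Other genes had smaller adjusted p, among them Srek1 and Pik3r1. Each is the 250 bases before the annotated start, 5′ to 3′ on the gene's strand, from RefSeq on GRCm38.p6, with any match to TAATTA, the core that many homeodomains bind, in capitals.
Nts (chr10:102490419-102490668, minus strand): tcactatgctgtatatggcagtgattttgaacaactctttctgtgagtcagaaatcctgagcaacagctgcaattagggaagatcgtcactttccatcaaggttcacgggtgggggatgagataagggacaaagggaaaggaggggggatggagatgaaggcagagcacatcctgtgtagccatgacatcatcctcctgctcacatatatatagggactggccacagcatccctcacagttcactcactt
Dlx1 (chr2:71529195-71529444, plus strand): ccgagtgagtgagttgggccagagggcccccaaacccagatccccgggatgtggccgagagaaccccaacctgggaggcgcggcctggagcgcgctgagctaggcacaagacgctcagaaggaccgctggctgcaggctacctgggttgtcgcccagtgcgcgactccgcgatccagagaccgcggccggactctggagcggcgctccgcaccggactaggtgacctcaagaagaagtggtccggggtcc
Msx2 (chr13:53472781-53473030, minus strand): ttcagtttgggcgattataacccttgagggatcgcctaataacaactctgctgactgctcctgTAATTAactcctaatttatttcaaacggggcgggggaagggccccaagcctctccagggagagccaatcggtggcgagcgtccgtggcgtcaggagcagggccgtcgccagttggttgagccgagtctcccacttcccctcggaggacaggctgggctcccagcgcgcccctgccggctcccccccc
Foxf2 (chr13:31625566-31625815, plus strand): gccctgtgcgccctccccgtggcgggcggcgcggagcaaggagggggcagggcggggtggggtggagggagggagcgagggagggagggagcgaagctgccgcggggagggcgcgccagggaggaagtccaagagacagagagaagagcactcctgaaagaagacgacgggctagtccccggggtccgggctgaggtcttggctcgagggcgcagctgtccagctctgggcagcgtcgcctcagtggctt
Both strands were searched for TAATTA, which reads the same on both. It occurs in 4.84% of all 32851 such windows. Of 12 genes looked up, 11 had a window, and of their 14 windows 2 hold it, that of Msx2 above and 1 of the windows of Tfap2a. A match describes letters only.

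A minority of facial patterning factors was called higher in the Alx1-high tumours. Their list, like the others, was chosen with earlier results of these data known, so its share of calls is no separate support. Of 58 listed craniofacial transcription factors 47 were measured, and 7 were called higher and 1 lower, beside 1.16% and 0.45% of all genes, with a median difference of 0.28 (0.08 with the set term) beside 0.02 (−0.03 with the set term) over all genes. The higher ones were Dlx1, Msx2, Dlx2, Tbx1, Foxf2, Tfap2a and Zfhx4, and the lower one was Meis2. With the set term 1 of the 47, Foxf2, was called, with Alx1 as a slope and the set term 3 were, and with tumours 183 and 188 left out 0 were called, where the 7 differences lay between 0.86 and 3.58. Without tumour 119 the count was 1, without 183 or 188 it was 3, without 66 or 176 it was 4, and without 12 it was 9.

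Dlx1, a homeobox gene that patterns the jaw arches, was 7.74, 8.28, 7.21, 6.04 and 7.51 in high tumours 29, 119, 331, 94 and 66. In low tumours 176, 12, 330, 183 and 188 it was 3.64, 3.76, 4.94, 3.64 and 3.64. The groups did not overlap, and 3 low tumours were at the floor. The log2 difference was 3.43 (SE 0.67, limma adjusted p = 0.0222), which is a lower limit, since values under the floor were raised to it. The same holds for Dlx2 and Msx2, with 2 and 1 low tumours at the floor. Leaving out 1 tumour at a time kept it between 3.20 and 3.76, with an adjusted p of up to 0.0623 (without 119), and the call was lost without 119, 183 or 188. Its neighbour on chromosome 2, Dlx2, was 7.88 ± 1.03 (SD, n = 5) in high and 4.61 ± 1.15 in low tumours, a difference of 3.26 (SE 0.69, adjusted p = 0.0315), with its lowest high tumour, 94, at 6.69 and its highest low tumour, 12, at 6.26, and its call was lost without 119, 66, 176, 183 or 188 (up to 0.0793). In the middle tumours, whose values do not enter the difference, Dlx1 was 7.62, 6.40 and 5.79 in 179, 64 and 353 and at the floor in 87 and 182.

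Msx2, a homeobox gene of the skull vault and its sutures, was 8.46, 8.59, 8.29, 7.05 and 8.44 in the high tumours, in the same order. In the low tumours it was 3.64, 5.54, 4.58, 5.37 and 4.73. Every high tumour lay above every low tumour (difference 3.40, SE 0.60, limma adjusted p = 0.0176), and the adjusted p was 0.0501 without tumour 119. In the control osteoblast cultures Msx2 was 4.30 to 5.04 and Dlx1 3.64 to 3.75, near the low tumours.

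Foxf2, a forkhead gene of the palate mesenchyme, kept its call in every leave-one-out fit. It was 9.01, 9.39, 8.17, 8.57 and 8.95 in the high tumours and 6.32, 7.08, 5.95, 6.31 and 6.13 in the low ones. The difference was 2.46 (SE 0.30, limma adjusted p = 0.00226) and 2.05 with the set term (adjusted p = 0.0150). Within the low-ratio set it was 1.30 and within the high-ratio set 1.87.

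Tbx1, a T-box gene of the pharyngeal arches, was 9.79 ± 0.47 (SD, n = 5) and at most 10.25 in the high tumours, while the low tumours ran from 4.61 in 330 to 9.35 in 12, so the groups overlapped (difference 3.11, SE 0.77, limma adjusted p = 0.0462). Its call and that of Zfhx4, a zinc finger homeobox gene (1.24, SE 0.31, adjusted p = 0.0487), were each lost in 9 of 10 leave-one-out fits, with adjusted p up to 0.107 and 0.116. Tfap2a, the AP-2 factor needed for the neural crest of the face, was 7.90 to 8.83 in the high and 5.44 to 6.78 in the low tumours, without overlap (2.06, SE 0.39, adjusted p = 0.0213). Without tumour 119 its adjusted p was 0.0606.

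Pax9, a paired box gene of teeth and palate, depended on the probe set. The brightest probe set, used for the gene, gave 7.88 in high and 7.40 in low tumours, a difference of 0.48 (SE 0.14, limma adjusted p = 0.0820), with no overlap. Its other probe sets, examined after their values were seen, gave 9.46 against 6.21 (difference 3.26, SE 0.40) and 9.09 against 4.12 (difference 4.98, SE 0.66). In a limma fit of all kept probe sets their adjusted p was 0.00234 and 0.00303. On the last one the 5 high tumours lay between 8.80 and 9.35 and the 5 low between the floor and 5.17, with 3 at the floor, so that this difference is a lower limit, and the middle tumours 179, 64 and 353 were at 8.27, 7.51 and 8.45 against 4.50 and 5.08 in 87 and 182.

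Other members of the list missed the threshold. Hand2, a basic helix-loop-helix factor of the lower jaw arch, was 10.58 ± 0.24 (SD, n = 5), at least 10.41, in the high and 6.30 to 9.46 in the low tumours, without overlap, with a difference of 2.22 (SE 0.59, limma adjusted p = 0.0589). Lhx8 differed by 2.22 (adjusted p = 0.105), Tbx2 by 2.05 (0.0767), Prrx2 by 1.42 (0.0837) and Twist1 by 1.09 (0.118). Alx4, the relative of Alx1 on the array, differed by −0.15 (adjusted p = 0.765). The paralogues Msx1, Dlx3, Dlx5 and Dlx6 differed by −0.05, 0.09, 0.52 and 0.46, with adjusted p of 0.942, 0.938, 0.286 and 0.168.

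**Figure D2:**
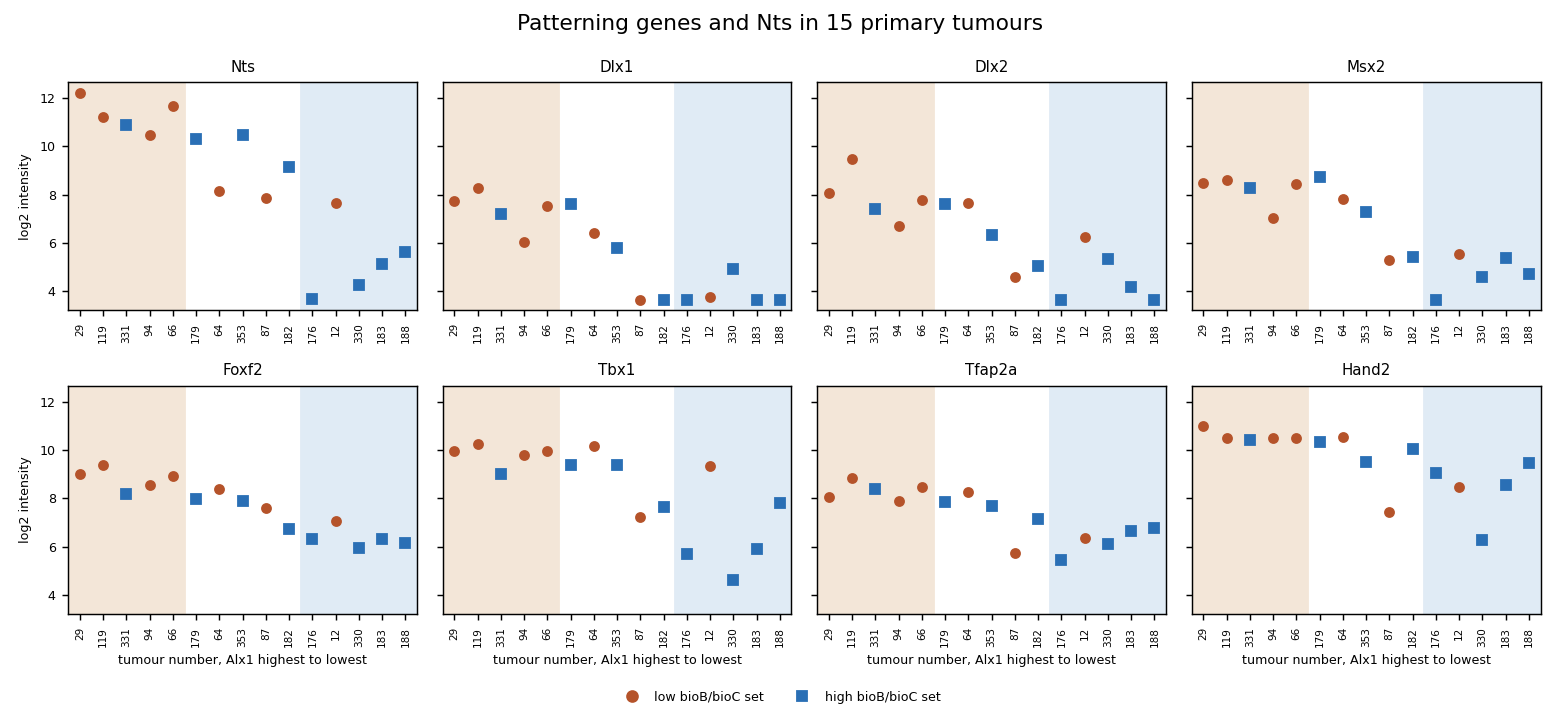
Log2 intensity of 8 genes in each primary tumour, ordered by Alx1 from highest (left) to lowest (right), with the 5 high tumours on the tan and the 5 low on the blue ground, and marker shape and colour giving the control-transcript set. Nts, Dlx1, Dlx2, Msx2, Foxf2, Tfap2a and Hand2 show no overlap between high and low tumours, and tumour 12 lies at 9.35 for Tbx1.

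Meis2, a TALE homeobox gene active in cranial neural crest and in the limb, went the other way. It was 5.35, 5.30, 5.62, 5.36 and 5.06 in the high tumours and 8.32, 7.32, 8.48, 6.65 and 6.51 in the low ones. The difference was −2.12 (SE 0.44, limma adjusted p = 0.0280), with an adjusted p of up to 0.0673 when 1 tumour was left out, and the call was lost without 119, 66, 94 or 330. The osteoblast cultures were at 8.13 to 8.29. Bnc2 and Foxd1 were not called (−2.15, adjusted p = 0.0931, and −1.43, adjusted p = 0.126), and tumour 330 was the highest of the 15 for both, at 10.02 and 7.85. Zic1, a factor of the dorsal neural tube and meninges, was at 11.73 in tumour 330 and at most 5.79 in the other 14.

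Trunk and limb position genes showed no called difference. Of 39 Hox genes 15 were measured, and 0 were called by limma, with differences from −1.16 (Hoxa3, adjusted p = 0.267) to 0.63 (Hoxb2, adjusted p = 0.551) and a median of −0.02. At an unadjusted limma p under 0.05 there was 1, beside 21.7% of all genes. Over all genes 1.61% were called, so lists of this size can be expected to hold few or no calls. The array names 33 of the 39, and the rest of these did not pass the filter. Hox levels in the primary tumours ran from the floor to 8.18. Of 28 limb and trunk factors 14 were measured, 0 were called and the median was −0.24. At an unadjusted limma p under 0.05 there were 3, beside the same 21.7% of all genes. With Alx1 as a slope and the set term 1 of the 14 was called lower. Pitx1, the hindlimb factor, was 5.63 ± 0.29 (SD, n = 5) in the high tumours, and in low tumours 183 and 188 it was 7.15 and 7.82, against 5.94 to 6.52 in the other 3 (difference −1.07, SE 0.30, limma adjusted p = 0.0695). Tbx15 and Tbx4 differed by −0.52 and −0.53 (adjusted p = 0.269 and 0.505). Tbx3 differed by 1.16 (adjusted p = 0.0718).

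Of 45 measured ligands, receptors and antagonists of facial and limb patterning, 2 were called higher and 0 lower, beside 1.16% and 0.45% of all genes. Fgfr3, an FGF receptor of growing bone, was 9.92 ± 0.31 in the high and 8.14 ± 0.85 in the low tumours (SD, n = 5 each), a difference of 1.78 (SE 0.38, limma adjusted p = 0.0326). Gli3, the repressor of Hedgehog target genes, was 9.76 to 10.40 in the high and 7.41 to 8.80 in the low tumours (1.75, SE 0.32, adjusted p = 0.0191), and lost its call only without tumour 119 (0.0512). Fgfr3 lost its call in 7 of 10 leave-one-out fits (up to 0.0815). The list had a median of 0.33.

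Nts, which encodes the precursor of the peptide neurotensin and lies near Alx1 on chromosome 10 with Rassf9 between them, had the largest difference of all called genes. It was 12.22, 11.20, 10.87, 10.45 and 11.65 in the high tumours and 3.69, 7.67, 4.26, 5.11 and 5.64 in the low ones. The difference was 6.01 (SE 0.68, 64.2-fold, limma adjusted p = 0.00119) and 5.91 with the set term (adjusted p = 0.0150), and it was called in every leave-one-out fit. In the osteoblast cultures Nts was at 3.64 to 3.68.

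The genes around Alx1 did not share this size of difference. In chromosome order, the 5 measured genes before it were Kitl (−0.46), Tmtc3 (0.46), 4930430F08Rik (0.05), Nts (6.01) and Rassf9 (1.55, limma adjusted p = 0.113), and the 5 after it Slc6a15 (1.01), Tmtc2 (1.05), Gm15666 (0.66), Mettl25 (0.70) and Ccdc59 (0.37). Only Nts was called. Mettl25 had an adjusted p of 0.0326 below the 2-fold limit, with high tumours at 6.02 to 6.52 and low at 5.33 to 5.93.

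Of the other genes with the largest differences, Gria3 and Cacng5, an AMPA-type glutamate receptor subunit and an auxiliary subunit of such receptors, were higher by 3.56 (SE 0.68, limma adjusted p = 0.0217) and 3.26 (SE 0.46, adjusted p = 0.00549). Gria3 was 5.54 to 9.39 in the high tumours and at or near the floor, up to 4.42, in the low ones, 3 of them at the floor, so that its difference is a lower limit, but 7.58 to 8.29 in the osteoblast cultures. Pik3r1, the regulatory subunit of phosphoinositide 3-kinase, was 10.55 to 11.20 in the high and 7.70 to 8.58 in the low tumours, a gap wider than the range of either group. Its difference of 2.74 (SE 0.30, adjusted p = 0.00112) stayed called with the set term (2.53, adjusted p = 0.0150). Samd5, Stox2 and 1700066M21Rik were higher by 2.87, 2.70 and 2.64 (adjusted p = 0.0222, 0.0203 and 0.0353), and 1700066M21Rik lost its call in 8 of 10 leave-one-out fits (up to 0.0871). The other kept probe set of Samd5 differed by 0.34, and the 4 of Stox2 by 1.74 to 2.70. Gria3 lost its call without 119, 183 or 188 (up to 0.0606), Samd5 without 119 or 183 (up to 0.0623) and Stox2 without 119 or 188 (up to 0.0555).

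Over the 15 tumours, the genes whose rank order was most like that of Alx1 were Pik3r1 (Spearman correlation 0.97), Esyt1 (0.95), Foxf2 (0.94), Srek1 (0.93) and Jmy (0.93). The most opposed were Serpinb1a (−0.93), Cox17 (−0.91), Timm10b (−0.90), Ccl2 (−0.90) and Nedd4l (−0.90). These values are descriptive, since the genes were picked by them, the Alx1 values are those that ranked the tumours, and the tumours share control-transcript sets. Srek1, a splicing factor gene, had the smallest p of all (difference 1.60, SE 0.16, limma adjusted p = 0.000983; 1.34 with the set term, adjusted p = 0.000837), and its 5 kept probe sets differed by 0.62 to 1.60. The other genes called with the set term, named after their values were seen, were Nanos1 (2.03) and Nts, Pik3r1 and Foxf2 higher, and Srgap1 (−1.73), Relb (−1.48) and Grb2 (−1.11) lower.

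A run of neighbouring genes on chromosome 7 stood higher in the Alx1-high tumours. The run was picked out after its values were seen, and goes from Klf13 to Slco3a1 over 35 measured genes in chromosome order. Of these 17 were called higher and 0 lower, beside 1.16% and 0.45% of all genes, and 31 had a positive difference. In 22 of the 35 the high tumours lay above the low ones without overlap, beside 2.89% of all genes. The median difference was 1.38 (1.47 with the set term), and −0.06 over the other 925 measured genes of the chromosome, of which 3 were called higher and 8 lower. The count was 7 without tumour 188, 8 without 183, 9 without 66 or 330 and 10 without 119. With both 183 and 188 left out it was 0 at a median of 1.37, and with the set term it was 0. Many genes before Klf13 in chromosome order also had positive differences, such as Scaf1 (1.57, called higher), Hps5 (1.23) and Nipa1 (1.43). Others there were negative, such as Gas2 (−0.52), so Klf13 is not a sharp edge.

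The run holds Igf1r, the receptor of insulin-like growth factor 1, which was 12.89, 11.62, 11.23, 11.12 and 11.89 in the high and 9.96, 9.51, 8.35, 8.86 and 8.72 in the low tumours (2.67, SE 0.48, limma adjusted p = 0.0179). Its 5 kept probe sets differed by 1.02 to 2.67, the brightest by most. Chaserr, a long noncoding RNA gene beside the chromatin remodeller gene Chd2, was 10.22 to 12.27 in the high and 7.20 to 8.33 in the low tumours (3.20, SE 0.46, adjusted p = 0.0061). Chd2 itself differed by 1.53 (adjusted p = 0.0353) and lost its call in 8 of 10 leave-one-out fits (up to 0.0868). Selenos, a selenoprotein of the endoplasmic reticulum, was 11.29 to 11.89 in the high and 9.07 to 9.72 in the low tumours (2.11, SE 0.34, adjusted p = 0.0125). Mef2a, a MADS-box transcription factor gene, differed by 1.62 (adjusted p = 0.0199, and 0.0528 without tumour 188). The 4 genes of the run with a negative difference, Aldh1a3, Nr2f2, Cers3 and A730056A06Rik, differed by −0.32, −0.15, −0.13 and −0.06.

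The run was picked for its difference between high and low tumours, so their parting over it is built in. Only the 5 middle tumours add to it. Taking each gene's deviation from its mean over the 15 tumours, the median over the 35 genes was 0.34 to 0.86 in the 8 tumours with most Alx1 and −0.55 to −0.91 in the 7 with least. The 5 middle tumours, whose values do not enter the differences, lay at 0.35 (179), 0.55 (64), 0.63 (353), −0.59 (87) and −0.67 (182). Both control-transcript sets held tumours on each side, and the median difference was 0.81 within the low-ratio and 1.52 within the high-ratio set. DNA copy number was not measured, so copy number and transcription cannot be told apart here.

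Chromosome 13 was the other place where calls gathered, again noticed after values were seen. Of its 477 measured genes 35 were called higher (7.34%) and 1 lower, beside 1.16% and 0.45% of all genes. Of the 477, 112 were higher in the high tumours without overlap, beside 2.89% of all genes. The median difference of the 477 was 0.44 (0.34 with the set term). The tumour medians were 0.03 to 0.32 in the 8 tumours with most Alx1 and −0.34 to −0.10 in the 7 with least. Here too the parting of high and low tumours follows from the choice of region. Msx2, Foxf2, Tfap2a, Gli3 and Pik3r1 lie on this chromosome, and its only gene called lower was Serpinb1a. Chromosome 13 and the chromosome 7 run together held 52 of the 150 genes called higher (34.7%). The chromosome 13 count was 6 without tumour 119 and 60 without 12, 10 without 183, 11 without 188, 14 without 66, 15 without 330, 18 without 176, 21 without 29 and 22 without 94; with the set term it was 3, and with 183 and 188 left out 2 at a median of 0.47.

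**Figure D3:**
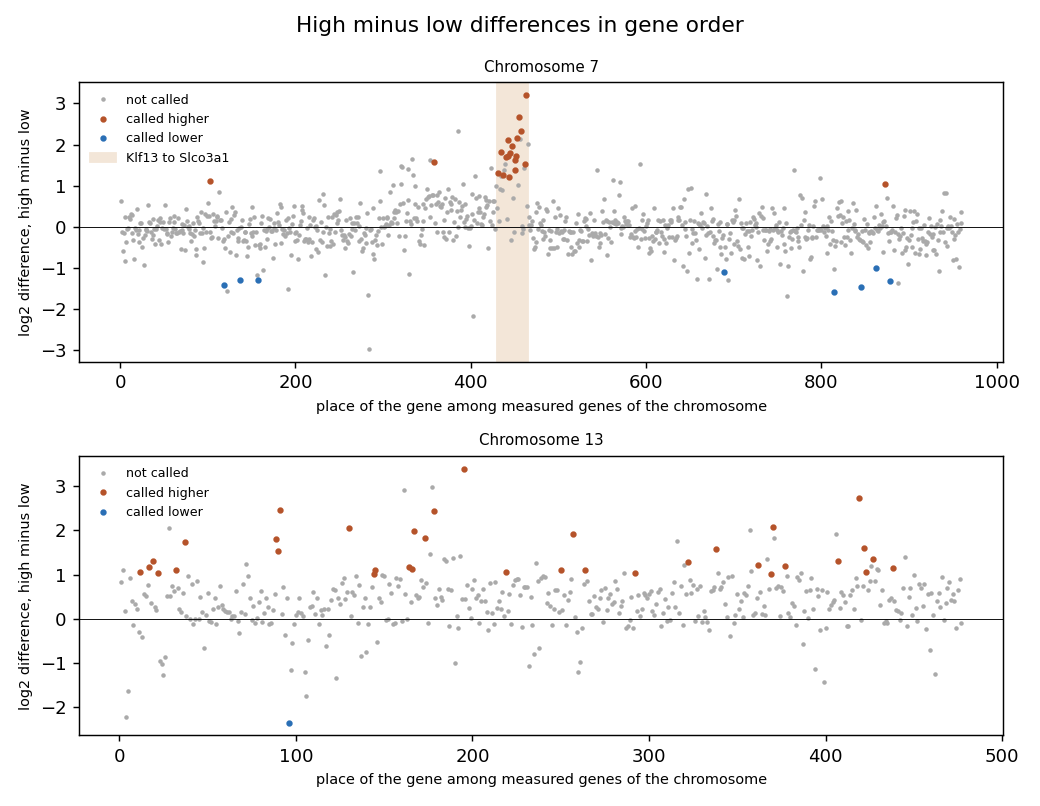
Log2 difference, Alx1-high minus Alx1-low, of each measured gene of chromosomes 7 (960 genes) and 13 (477 genes) in chromosome order, with called genes coloured and the 35-gene run shaded. The run stands above most of chromosome 7, many genes before it are also positive, and differences along chromosome 13 are mostly positive.

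**Figure D4:**
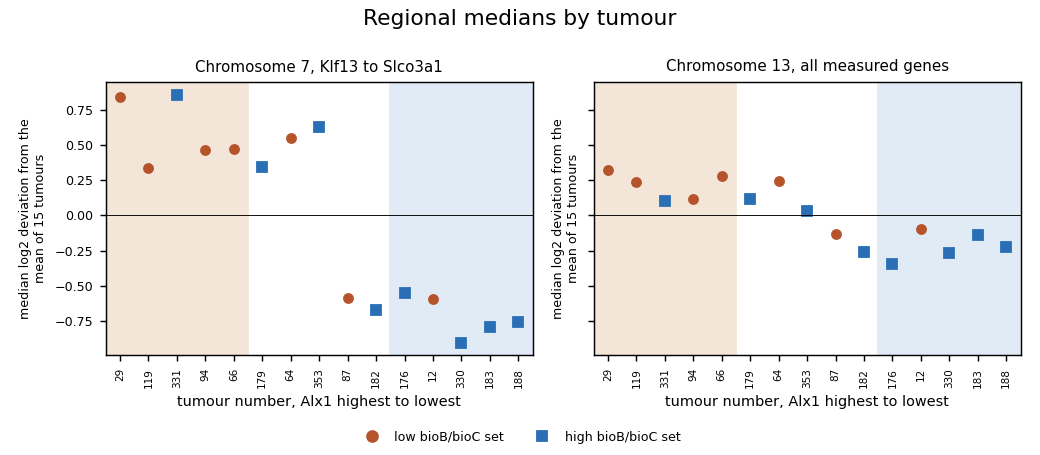
Median log2 deviation from the mean of the 15 primary tumours, over the 35 genes of the chromosome 7 run (left) and all 477 genes of chromosome 13 (right), with tumours in order of Alx1, the 5 high on tan and the 5 low on blue ground, and marker shape and colour giving the control-transcript set. In the chromosome 7 run the 8 leftmost tumours lie at 0.34 or more and the 7 rightmost at −0.55 or less. Both regions were picked for their difference between the high and low tumours.

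The genes lower in the Alx1-high tumours included Egln3, Asns, Timp1 and Ccl2. Egln3, an oxygen-sensing prolyl hydroxylase induced in hypoxia, was 6.99, 6.53, 6.03, 5.92 and 5.86 in the high and 8.97, 8.31, 8.55, 8.62 and 8.52 in the low tumours (−2.33, SE 0.32, limma adjusted p = 0.00453), and was called in every leave-one-out fit. Of 16 measured hypoxia and glycolysis genes 2 were called lower, Egln3 and the glucose transporter gene Slc2a1 (−1.11, SE 0.21, adjusted p = 0.0204), and 0 higher, beside 0.45% and 1.16% of all genes, with a median of −0.60. Slc2a1 lost its call without 183 or 188 (up to 0.0528).

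Asns, asparagine synthetase, which cells raise when amino acids are short, was 7.82, 7.41, 7.71, 7.46 and 7.46 in the high and 8.23, 9.69, 9.80, 10.02 and 10.57 in the low tumours. The difference was −2.09 (SE 0.37, limma adjusted p = 0.0176). Chac1, another gene of that stress response, chosen after its value was seen, differed by −1.62 (adjusted p = 0.0199, and 0.0543 without tumour 119). Timp1, an inhibitor of matrix metalloproteinases, was 9.58 to 10.22 in the high and 11.30 to 12.39 in the low tumours (−1.82, SE 0.29, adjusted p = 0.0116).

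Ccl2, the monocyte-attracting chemokine, was 6.37, 5.81, 6.82, 5.96 and 6.49 in the high tumours and 7.01, 7.73, 8.17, 8.95 and 9.03 in the low ones (−1.89, SE 0.34, limma adjusted p = 0.0179), without overlap, and its adjusted p was 0.0512 without tumour 119. Il1rn, the interleukin 1 receptor antagonist, was lower by 2.71 in the high tumours and reached 9.49 and 9.04 in tumours 183 and 188 against 5.49 to 7.14 in the other 3 low ones (adjusted p = 0.0430, up to 0.102 without 188). Serpinb1a, an inhibitor of neutrophil proteases, was at the floor in all 5 high tumours and 4.12 to 7.66 in the low ones, at least 5.11-fold lower in the high tumours (adjusted p = 0.0335), and lost its call in 8 of 10 leave-one-out fits (up to 0.0793). Thbd, thrombomodulin, and Arhgdib, a gene of blood cells, differed by −2.42 and −1.79 (adjusted p = 0.0398 for each), and lost their calls in 8 and 9 of 10 such fits (up to 0.0974 and 0.0956). Mamdc2, Epha3 and Flrt2 differed by −2.25, −2.21 and −1.84 (adjusted p = 0.0213, 0.0297 and 0.0495), and lost their calls in 1, 6 and 8 of 10 such fits (up to 0.0525, 0.0772 and 0.116).

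Some genes of myeloid cells were lower in the Alx1-high tumours. Of 16 macrophage markers 0 were called by limma and 5 had an unadjusted p under 0.05, beside 1.61% and 21.7% of all genes. Of the 16, 14 had a negative difference and the median was −0.66 (−0.94 with the set term). Their summed intensity ran from 5970 to 19438 in the high and from 10563 to 32997 in the low tumours, so the groups overlapped. Genes of myeloid cells outside the list, named after their values were seen, were called lower: the integrin gene Itgam (−1.59, adjusted p = 0.0415), the chemokine gene Pf4 (−1.47, 0.0323), Ms4a7 (−1.57, 0.0413), Cd300lb (−1.56, 0.0353) and Clec4n (−1.30, 0.0322). Each lost its call when high tumour 119, 66 or 94 or low tumour 183 or 188 was left out, and some without further tumours. Over the leave-one-out fits their limma adjusted p reached 0.100, 0.0801, 0.0981, 0.0905 and 0.0776. In whole tumours, fewer cells of a type and less RNA per cell cannot be told apart. Of the osteoclast markers Itgb3 was called lower (−1.87, adjusted p = 0.0492), 1 of 10.

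**Figure D5:**
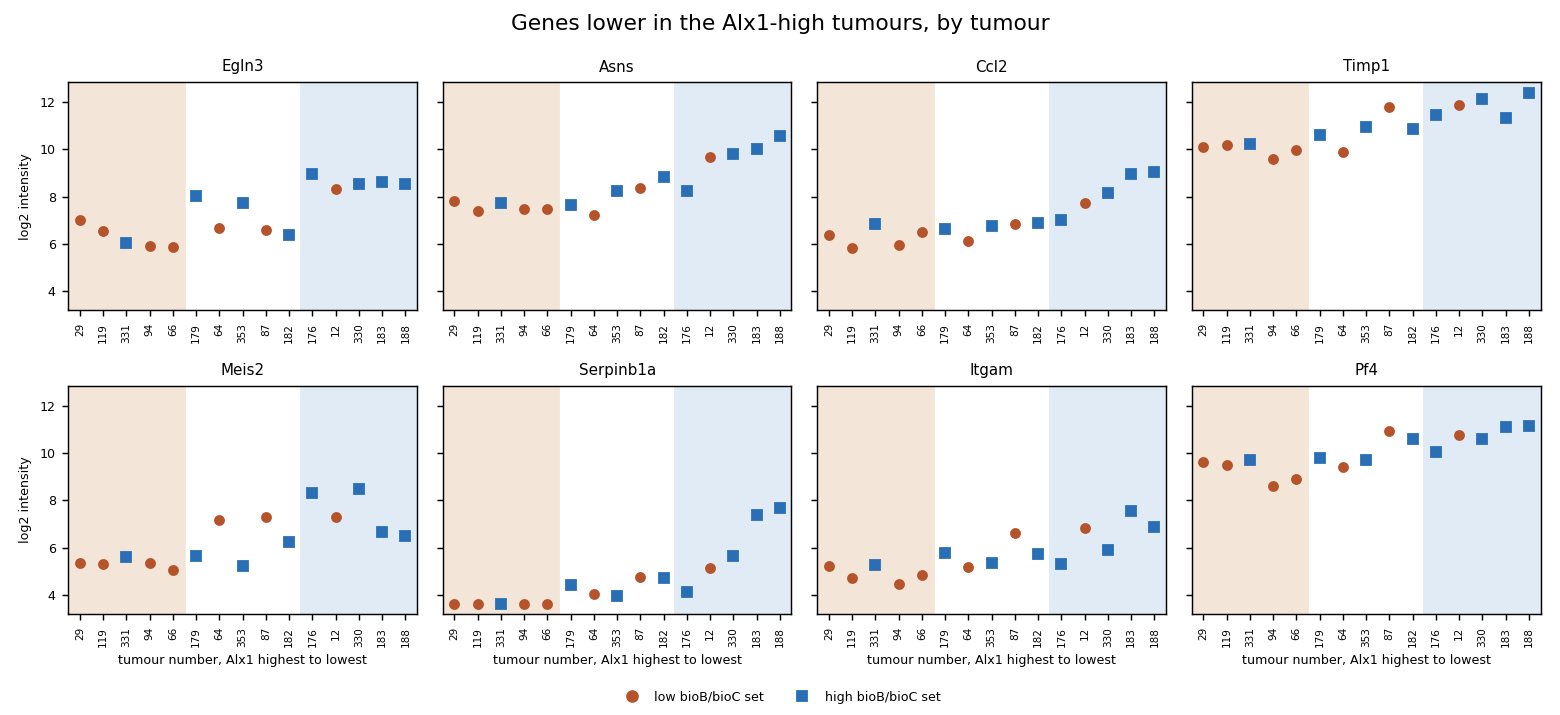
Log2 intensity of 8 genes called lower in the Alx1-high tumours, by primary tumour in order of Alx1 from highest (left) to lowest (right), with the 5 high tumours on tan and the 5 low on blue ground, and marker shape and colour giving the control-transcript set. Egln3 lies at 6.99 or less in the high and at 8.31 or more in the low tumours, and Serpinb1a is at the floor of 3.64 in the 5 high tumours.

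Markers of other cells were set beside these results, and their part in them was not tested. Over all genes 1.16% were called higher and 0.45% lower. At these shares a short list can be expected to hold few or no calls, so 0 called does not show equal cell content. Epithelial and skin markers summed to 1000 to 1874 in the high and 1034 to 12539 in the low tumours, and neutrophil markers to 430 to 1315 and 497 to 21152, with 0 of 11 and 0 of 7 called. Skeletal muscle markers reached 49561 in the high and 41192 in the low tumours, with 0 of 17 called. Of the meningeal markers 1 of 8 was called, Ogn, and the sum reached 18839 in the low tumours. Of 4 enamel organ markers Ambn, the enamel matrix gene ameloblastin, was called higher (3.30, SE 0.74, limma adjusted p = 0.0358), with high tumours at 8.54 to 11.46 and low tumours at 5.33 to 8.65. T and NK cells, B cells, erythroid cells, endothelium, embryonic muscle, pericytes, adipocytes, gland epithelium, neurons, glia, Schwann cells, melanocytes and sex-linked genes had 0 members called. Only 2 genes were measured for T and NK cells, 2 for gland epithelium and 3 for B cells. The 4 sex-linked genes measured had a median difference of 1.56 (0.97 with the set term), with 3 positive and 1 negative. Of these, 2 were higher at an unadjusted limma p under 0.05. Whether the high and low tumours differ in the sex of the animals was not tested. Over all marker lists without a call, 132 genes were measured, and limma gave 5 higher and 14 lower at an unadjusted p under 0.05. Over all genes that share was 21.7% in either direction.

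The bone and matrix genes called were Cdh11, Ogn and Thbs1, beside 1.61% of all genes called and 21.7% at an unadjusted limma p under 0.05. Of 19 osteoblast identity genes 1 was called, Cdh11, the osteoblast cadherin (1.03, SE 0.24, limma adjusted p = 0.0414), and of 12 mineralisation and 16 cartilage genes 0 were called, with 4 in each list at an unadjusted p under 0.05. Ogn, the matrix proteoglycan osteoglycin, was higher (2.43, adjusted p = 0.0341) and Thbs1, thrombospondin 1, lower (−1.40, adjusted p = 0.0341) among 22 fibrous matrix genes. Apcdd1, a Wnt target and antagonist, was the 1 of 13 Wnt targets called (2.85, SE 0.70, adjusted p = 0.0462), and Trp53inp1 the 1 of 17 DNA damage response genes (2.25, adjusted p = 0.0253). Of 20 mitosis genes Cenpf was called (1.30, adjusted p = 0.0456), all 20 had a positive difference, and Mki67 differed by 0.51 (adjusted p = 0.418). Neural crest (12 measured), S phase (23), immediate early (18), interferon (20) and MHC class II genes (6) had 0 called, with medians of −0.08, 0.08, −0.45, −0.02 and −0.41. At an unadjusted limma p under 0.05 they had 2, 0, 6, 2 and 1. Leaving out single tumours took the call from Cdh11 in 8 of 10 fits, Ogn, Thbs1, Itgb3 and Ambn in 7, Apcdd1 and Cenpf in 8 and Trp53inp1 in 4, with adjusted p of up to 0.111.

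The secondary tumours and cell lines were not ranked by Alx1, though they entered the average that chose its probe set and the filter on low values. Secondary tumours 29, 66 and 94, whose numbers match high tumours, had Nts at 11.34, 10.87 and 10.09, and number 64, which matches a middle tumour, was at 5.12. Dlx1 was 7.52, 6.96 and 6.93 in the same 3 and 5.68 in 64, and Msx2 8.80, 8.01 and 7.56 against 6.65. The chromosome 7 run lay at 0.97, −0.33, 0.69 and 0.62 in secondary tumours 29, 66, 94 and 64, while primary 66 was at 0.47. Secondary array 66 is the one whose title says cell line. In secondary tumour 66 Selenos was at 9.84, above the low tumours (at most 9.72) and below the high ones (at least 11.29), while Igf1r was at 12.40 and Chaserr at 11.72. Cell line 179 lay at −0.83 against 0.35 in primary tumour 179, and cell lines 176 and 182 at −0.11 and −0.71 against −0.55 and −0.67. Shared numbers are the only link between these arrays that the labels give.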

How the data were processed

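RNA of 26 mouse samples was copied into biotin-labelled cRNA and hybridised to 1-colour oligonucleotide arrays, per the labels' protocols. The deposited values are linear intensities per probe set; the software, background correction and scaling are not given in the sources read. Array number limits the precision. Probe sets were named from the platform annotation and a RefSeq table of GRCm38.p6 (34945 of 45101 had 1 symbol, 932 several, 9224 none; 34754 matched by gene identifier), which also gave gene order. Intensities under 12.5, the 20th percentile, were set to it before log2. Probe sets above the median (52.6) on at least 3 arrays were kept, and the brightest kept probe set on average stood for the gene, which gave 12886 genes without Alx1.

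limma 3.58.1 in R 4.3.3 fitted the 15 primary tumours with 3 levels (high, middle, low), with Benjamini-Hochberg adjustment over all genes; adjusted p in the text are from it. SE is limma's moderated standard error. No set test was run. On simulated arrays of this size it recovered 30% of genes changed by 1 on the log2 scale, 94% at 2 and 100% at 3, with 3 false calls over 12886 genes. Members and lists (17 gene and 20 marker lists) were chosen with earlier results of these data known. Genes named are the 12 largest called and non-overlapping in each direction, any member of the craniofacial, Hox and limb lists, up to 4 of every other list, a short fixed set including Alx4, Pitx1, Sp7, Ibsp and Mki67, and those the text says were named after their values were seen. Runx2 was not named on the array and Tbx5 and Hoxc9 did not pass the filter. Of the 12 genes whose upstream windows were looked up, 11 had one. The alternatives tried were the floor, a pseudocount of 16, scaling, filter, probe set rule, samples in the fit, array weights, set sizes of 4, 6 and 7, a slope on Alx1, the control-transcript set and leaving tumours out.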

Additional observations from a re-analysis of the deposited data

Results flagged for a closer look

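Over 116 groups of 5 tumours, 2 for each called gene named in the text, 7 held a tumour whose gap to the nearest other was large against the range of the group, and chance gives about 1 in 20. Among the low tumours, number 330 was the highest for Dlx1 at 4.94 (next 3.76) and for Flrt2 at 8.36 (next 6.84), and the lowest for Selenos at 9.07 (next 9.54). Number 12 was the highest low tumour for Ambn at 8.65 (next 6.22), Srek1 at 9.30 (next 8.86) and Tm2d3 at 7.45 (next 7.07). Among the high tumours, number 94 was the lowest for Msx2 at 7.05 (next 8.29). A difference of the slope on Alx1 between the control-transcript sets was found for 0 genes by limma (lowest adjusted p 1.00, and 533 genes at an unadjusted p under 0.05).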

How the results depend on the processing

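The main counts were 150 genes called higher, 58 lower and 7 craniofacial genes higher. Without the filter they were 43, 17 and 3, with every kept probe set 362 and 126, with all 26 arrays 292 and 140, and with array weights 275 and 192. With 4 against 4 tumours they were 47, 37 and 1, and with the ranking from the other Alx1 probe set 61, 26 and 2. With only the 10 tumours compared 37 genes were lower. Under 75th percentile scaling 103 were lower and under quantile normalization 100. With the control-transcript set as a term they were 5, 3 and 1, and with Alx1 as a slope 246 higher and 156 lower. The slope with the set term gave 65, 93 and 3. The comparison of 3 against 3 gave 0, 0 and 0 in the low-ratio set and 25, 20 and 1 in the high-ratio set, and leaving out tumours 183 and 188 gave 4, 0 and 0. The slope with the set, the 3 against 3 comparisons and the removal of 183 and 188 were chosen after seeing the data. Leaving out 1 tumour gave 28 to 349 higher, 11 to 104 lower and 1 to 9 craniofacial genes. The floor at the 40th percentile, the pseudocount, the stricter filter, the mean of probe sets, and 6 against 6 or 7 against 7 tumours kept all 3 counts within 1.5 times. No named gene changed sign while called. Of the values for 58 called genes under alternatives, 1151 stayed called and 585 lost the call. The causes were not tested. Fewer tumours entered the reduced fits, which called more genes in some cases and fewer in others. The main groups could not be compared inside each control-transcript set, because each set holds only 1 tumour of one group. No paired analysis was possible because the high and low tumours are different tumours that share no number.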

Other observations

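Beyond chromosomes 7 and 13, genes called higher in the Alx1-high tumours numbered 17 of 753 on chromosome 1 (2.26%) and 15 of 619 on chromosome 10 (2.42%). Over all genes the share was 1.16%. The median differences of chromosomes 1 and 10 were 0.12 and 0.16 (0.01 and 0.11 with the set term). On chromosome 17 limma called 0 of 614 genes higher and 2 lower. Kit, a receptor tyrosine kinase of neural crest and blood cells, did not overlap between high and low tumours, with a difference of 2.54 that missed the limma threshold (adjusted p = 0.102). Ednrb, the endothelin receptor B of the neural crest, also did not overlap and had a limma adjusted p of 0.0398 at a difference of −0.87, under the 2-fold limit. The immediate early gene Fos differed by −1.88 (limma adjusted p = 0.149).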
